A study of Mus musculus with 69 samples.

Results

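The genes described here are 10 claudins, Cldn1, Cldn2, Cldn3, Cldn4, Cldn7, Cldn8, Cldn10, Cldn14, Cldn16 and Cldn19, measured in 69 RNA-Seq libraries of mouse kidney. They were taken by symbol from the 24411 genes of the count table, all 10 passed the minimum of 2 counts over all libraries, and 22 further genes of the table carry a Cldn symbol. In this study a parasite enzyme, Uprt, was switched on by Cre in chosen kidney cells so that 4-thiouracil (4-TU), given to the mouse 4 hours before harvest, entered the RNA those cells were making. The tagged RNA was then pulled down and sequenced. The comparisons ask which tubule genes respond to ischemia and which to loss of volume, and whether cells of the collecting duct respond alike.

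Every mouse carried 1 allele of Uprt in Rosa26 behind a floxed stop, on a background backcrossed to C57BL/6J, written UPRTf/+ in the labels, together with 1 of 2 Cre drivers. Hoxb7Cre is active in the collecting duct. Atp6v1b1Cre (Atp6b1v1 in the labels) is active in intercalated cells and in cells with features of both intercalated and principal cells, and it also marks a few interstitial cells. Controls comprised 10 Hoxb7Cre pulldowns, 11 Atp6v1b1Cre pulldowns and 21 libraries of total kidney RNA without pulldown, from mice of both genotypes given 4-TU. The study's description counts fewer control mice than control libraries, so mice gave both a pulldown and a total library, and the labels do not say which belong together. Ischemia, labelled iAKI, meant clamping both renal arteries for 10 minutes, 24 hours before 4-TU was given, and gave 7 Hoxb7Cre and 6 Atp6v1b1Cre pulldowns. Volume depletion, labelled vAKI, meant restricted access to food and water for 72 hours, and gave 7 pulldowns of each driver. The mice were 5.5 months old apart from 10 control libraries of mice of 3 months, and both sexes were used. Injury was tested in the 22 male pulldowns of 5.5 months, with 4 control, 4 ischemic and 3 depleted mice for Hoxb7Cre and 4, 3 and 4 mice for Atp6v1b1Cre, and the female pulldowns of that age were fitted separately.

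Claudins are the membrane proteins that form the strands of the tight junction and set which ions and how much water can pass between neighbouring epithelial cells. Each stretch of the nephron carries its own set. Leaky claudins line the proximal tubule and the thick ascending limb of Henle's loop, where much sodium, calcium and magnesium is recovered between cells, and tighter ones line the distal nephron and the collecting duct, where urine is finally adjusted. Cldn2 forms the cation and water pore of the proximal tubule. Cldn10 is used in the proximal tubule and the thick ascending limb through different variants. Cldn16 and Cldn19 work together in the thick ascending limb in the recovery of calcium and magnesium, and loss of either causes magnesium wasting with calcium deposits in the human kidney. Cldn14 limits that pathway when the calcium-sensing receptor is active. Cldn3, Cldn4, Cldn7 and Cldn8 are claudins of the distal nephron and collecting duct, where Cldn4 and Cldn8 serve the chloride path. Cldn1 is a barrier claudin, known in the kidney from the parietal cells of Bowman's capsule.

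Cldn10 and Cldn19 carried much of what follows, and their promoters are shown because the deposited counts sum each gene over all of its transcripts. Cldn10 lies on chromosome 14 at 118787908 to 118875489 on the plus strand of GRCm38, and RefSeq (GRCm38.p6) starts its transcripts at 2 distant places, 118787871 and 118854950. Reads from the variants cannot be told apart in a count per gene. Cldn19 lies on chromosome 4 at 119255414 to 119262438 on the plus strand. Below are the 250 bases before the upstream start of Cldn10 (chr14:118787621-118787870), before its downstream start (chr14:118854700-118854949) and before the first start of Cldn19 (chr4:119255191-119255440), all read 5′ to 3′ on the plus strand.
Cldn10 upstream start: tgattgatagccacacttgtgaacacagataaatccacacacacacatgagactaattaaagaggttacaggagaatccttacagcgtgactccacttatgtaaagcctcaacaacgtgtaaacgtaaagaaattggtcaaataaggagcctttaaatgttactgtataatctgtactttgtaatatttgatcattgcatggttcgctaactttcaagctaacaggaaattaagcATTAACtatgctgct
Cldn10 downstream start: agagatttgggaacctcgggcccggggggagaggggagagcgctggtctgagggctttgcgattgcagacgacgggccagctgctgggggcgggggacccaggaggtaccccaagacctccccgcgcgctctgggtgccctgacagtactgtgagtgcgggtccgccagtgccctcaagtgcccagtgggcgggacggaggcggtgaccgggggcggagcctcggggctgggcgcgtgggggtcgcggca
Cldn19: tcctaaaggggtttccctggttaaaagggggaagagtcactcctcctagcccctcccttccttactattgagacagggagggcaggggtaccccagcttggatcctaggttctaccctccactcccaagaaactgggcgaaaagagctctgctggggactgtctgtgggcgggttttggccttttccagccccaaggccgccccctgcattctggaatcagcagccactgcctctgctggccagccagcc
Capitals mark a match to GTTAAT or its reverse ATTAAC, the letters of one arm of the palindromic HNF1 site, which stood once before the upstream start of Cldn10 and in neither of the other stretches. The base composition of the Cldn10 starts differed, with 36.0% G and C before the upstream start and 72.4% before the downstream start. Over windows of 300 bases around the start, from 250 before it to 50 after it, RefSeq gave 14 promoters for 9 of the 10 claudins. The HNF1 letters occurred in 3 of the 14, for Cldn1, Cldn10 and Cldn14, against 7.10% of 32851 mouse promoters of the same length. TATAAA, on either strand, occurred in the Cldn2 promoter alone, against 13.6% of all promoters, and the Grainyhead letters AACNNGTT occurred in none of the 14, against 4.20%. Of the others, Cldn3 (134986214 to 134987472, plus strand) and Cldn4 (134945119 to 134946934, minus strand) are neighbours on chromosome 5, 39.28 kb apart. Cldn1 (26356642 to 26371841, minus strand) and Cldn16 (26463135 to 26482765, plus strand) are neighbours on chromosome 16, 91.294 kb apart, and Cldn8 (88560828 to 88563183) and Cldn14 (93919031 to 94008837) lie farther along it on the minus strand. Cldn2 lies on chromosome X at 139800828 to 139811386 and Cldn7 on chromosome 11 at 69964779 to 69967885, both on the plus strand. Exons of Cldn3 overlap Wbscr25, and exons of Cldn19 overlap Gm12927, each on the opposite strand. The sources used here do not say that strand was kept in the libraries or in counting, so reads in those overlaps may belong to either gene.

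The libraries held between 12618062 and 30305464 counts, with a median of 20868430, so that all claudins except Cldn14 rested on at least 60 counts in every pulldown. Cell type markers mostly followed the labels. All 6 principal cell genes were higher in the Hoxb7Cre control pulldown than in total kidney RNA, where 35.6% of all genes were. In the Atp6v1b1Cre pulldown 5 of 7 intercalated cell genes were higher, where 34.4% of all genes were. The study's own test found no difference there for Atp6v1b1 and Slc4a1. Of the 8 proximal tubule genes 7 and 8 were lower in each, where 31.1% and 29.4% of all genes were. Both collecting duct sets are given for their own driver alone, so these counts do not separate the drivers. The pulldowns were not free of other segments. Summed CPM, counts scaled to library size, of 4 thick ascending limb genes, Umod, Slc12a1, Kcnj1 and Ptger3, was 1224 to 2923 in Hoxb7Cre controls, 917 to 2653 in Atp6v1b1Cre controls and 5856 to 11357 in total RNA, with none of the 4 at 0. Library numbers in the labels fell into 3 ranges. All Hoxb7Cre injury libraries carried numbers up to 40, whereas 2 of the 4 male controls of 5.5 months of each driver carried numbers from 65 to 85, so each injury result of males was also computed within numbers up to 40, a check chosen after seeing the data. Among female controls of 5.5 months 3 of 4 with Hoxb7Cre and 2 of 4 with Atp6v1b1Cre carried numbers above 40, which touches the female values and the differences between the sexes given below, and its part in them was not tested.

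In total RNA of control kidneys the claudins spanned a wide range of levels, and Cldn2, the proximal tubule pore, led. Levels between genes are given in RPKM, CPM divided by the exonic length of the gene in kilobases. Cldn2 had 194 ± 33 RPKM (SD, n = 21), followed by Cldn10 at 73.8 ± 15.5 and Cldn8 at 36.8 ± 9.17. No library put Cldn10 at the level of Cldn2, with ranges of 145 to 256 for Cldn2 and 51.8 to 105.2 for Cldn10. Cldn4 stood at 23.2 ± 6.31 RPKM, and Cldn7, Cldn16 and Cldn3 followed at 14.3 ± 3.94, 13.3 ± 3.85 and 11.9 ± 3.77. The ranges of these last 3 overlapped, and levels were not tested between genes. Cldn19 had 6.88 ± 1.94 RPKM and Cldn1 4.24 ± 0.966, neighbours whose ranges overlapped. Cldn14 was the lowest at 0.446 ± 0.291 RPKM, below the lowest value of any other claudin in every library.

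The order changed in the tagged RNA of the pulldowns, which were not free of other segments. Summed CPM of the proximal tubule markers was 2171 to 5125 in Hoxb7Cre controls, 1997 to 5268 in Atp6v1b1Cre controls and 11993 to 23145 in total RNA. The part of proximal tubule RNA in the level of Cldn2 was not tested. Uracil content, given below, may also bear on the order between genes. Cldn2 still led in the Hoxb7Cre control pulldown with 91 ± 15.3 RPKM (SD, n = 10). The collecting duct claudins Cldn8 and Cldn4 came next with 61.5 ± 17.4 and 60.9 ± 16.8, with overlapping ranges. Levels were not tested between genes here either. Cldn7 had 22 ± 4.08 RPKM there, ahead of Cldn10 at 14.6 ± 2.88. Cldn16, Cldn3, Cldn1 and Cldn19 lay between 2.14 and 18.4 RPKM in single libraries, with overlapping ranges, and Cldn14 averaged 0.451 ± 0.363. In the Atp6v1b1Cre control pulldown (n = 11) the first 3 places were the same, Cldn2 with 92.8 ± 24.9, Cldn8 with 56.5 ± 15.3 and Cldn4 with 47.2 ± 10.1 RPKM. Cldn10 at 16.9 ± 2.46 and Cldn7 at 15.5 ± 3.08 had overlapping ranges.

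**Figure D1:**
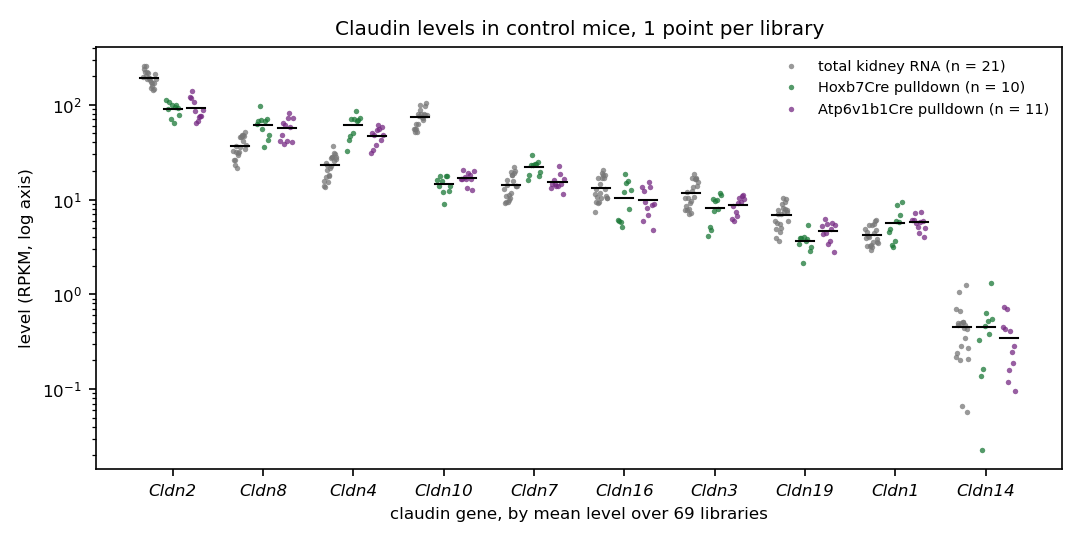
Claudin levels in control mice as RPKM on a log axis, 1 point for each library of total kidney RNA (grey, n = 21), Hoxb7Cre pulldown (green, n = 10) and Atp6v1b1Cre pulldown (purple, n = 11), with a bar at the mean. Cldn10 falls from 73.8 RPKM in total RNA to 14.6 and 16.9 in the pulldowns with no overlap of points, and Cldn4 lies higher in both pulldowns.

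Set against total kidney RNA, Cldn2, Cldn10 and Cldn19, claudins of the proximal tubule and thick ascending limb, were lower in both control pulldowns, and Cldn1, Cldn4 and Cldn8 were higher in both. The test was edgeR's quasi-likelihood test with sex as a covariate and Benjamini-Hochberg adjustment over 21175 genes, and here passing means an adjusted p below 0.05. In the Hoxb7Cre pulldown 9 of the 10 claudins passed, 4 higher and 5 lower, where 66.6% of all genes passed, 35.6% higher and 31.1% lower. In the Atp6v1b1Cre pulldown 6 passed, 3 in each direction, where 63.8% of all genes did, 34.4% higher and 29.4% lower. Genes that passed with a change of at least 1 on the log2 scale, called DEGs here, included 3 claudins in each pulldown, Cldn2, Cldn4 and Cldn10, where 32.5% of all genes were DEGs with Hoxb7Cre and 27.7% with Atp6v1b1Cre. With total libraries of the other driver's genotype alone, a setting added after seeing the data in which no mouse enters more than once, 8 of those 9 claudins and all 6 passed again, where 62.4% and 57.5% of all genes did, and Cldn16 with Hoxb7Cre stood at -0.41 (adjusted p = 0.0501). Shares as high as these among all genes leave the size for each claudin as the result, which can be read against a median of 0.11 over all genes, on the log2 scale, in each pulldown. The study cautions that its method may favour RNA rich in uracil, which might affect comparisons between genes. By uracil share among 21877 coding genes, Cldn8 stood at percentile 95.5, Cldn1 at 91.9 and Cldn3 at 5.24. Cldn4, the most enriched of the 10 claudins, stood at 43.6 and Cldn10, the most depleted of them, at 51.6. The part of uracil in the pulldown values was not tested. Pulldown and total RNA also differ in the cells that are tagged. They differ in the age of the RNA too, since the tag marks RNA made within 4 hours, and these differences cannot be told apart here. Nor can fewer cells of a type be told apart from less RNA per cell in any comparison of these bulk libraries.

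Cldn4, which serves the chloride path, had the largest enrichment of the 10. Its CPM in total RNA ran from 24.5 to 66.4 with a median of 42, against 58.9 to 157 with a median of 123 in the Hoxb7Cre pulldown, a range that overlapped total RNA through its lowest library alone. The log2 fold change was 1.40 ± 0.13 (adjusted p = 1.46e-13), which is 2.64-fold, with Hoxb7Cre and 1.12 ± 0.12 (adjusted p = 7.45e-11) with Atp6v1b1Cre. Cldn8, its partner in that path, was higher by 0.78 ± 0.13 (adjusted p = 1.12e-06) and 0.69 ± 0.13 (adjusted p = 8.66e-06). Cldn7 was higher with Hoxb7Cre, 0.66 ± 0.10 (adjusted p = 1.85e-07), and stood at 0.22 (adjusted p = 0.0552) with Atp6v1b1Cre, which did not pass. Cldn3, although grouped with the distal claudins, was lower with Hoxb7Cre, -0.52 ± 0.16 (adjusted p = 0.00341), and stood at -0.34 (adjusted p = 0.0521) with Atp6v1b1Cre. Cldn1 was modestly higher in both, 0.36 (adjusted p = 0.00145) and 0.55 (adjusted p = 1.41e-06). In males alone Cldn7 and Cldn8 stood higher in the Hoxb7Cre pulldown, at 1.08 and 1.21, against 0.30 and 0.41 in females, a difference between the sexes that was not tested, while Cldn1 did not pass in males at 0.10 (adjusted p = 0.521).

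Cldn10 was the most depleted claudin. Total RNA held 134 to 273 CPM with a median of 194, the Hoxb7Cre pulldown 23.5 to 46.3 and the Atp6v1b1Cre pulldown 32.4 to 52.7. The ranges did not overlap, and the log2 fold changes were -2.29 ± 0.12 (adjusted p = 8.61e-22) and -2.08 ± 0.11 (adjusted p = 3.66e-21), a 4.90-fold and a 4.23-fold lower level. Cldn2 was the other claudin whose values stood apart from total RNA in both pulldowns, at -1.04 ± 0.11 (adjusted p = 4.34e-11) and -1.02 ± 0.11 (adjusted p = 2.10e-11). Values of this kind were found for 25.9% of all genes with Hoxb7Cre and 24.1% with Atp6v1b1Cre. Cldn19 was lower, at -0.89 ± 0.13 (adjusted p = 1.19e-07) with Hoxb7Cre and -0.45 ± 0.13 (adjusted p = 0.00225) with Atp6v1b1Cre, although the latter did not pass in males alone at -0.26 (adjusted p = 0.195). Cldn16, its partner, stood at -0.39 (adjusted p = 0.0262) and -0.31 (adjusted p = 0.0695), and its Hoxb7Cre value did not pass without control pulldown 1, 2, 3, 4 or 9 (adjusted p = 0.0502 to 0.0672). Cldn14 did not pass in either pulldown, -0.13 (adjusted p = 0.735) and -0.15 (adjusted p = 0.693). Of the 4 thick ascending limb markers, Slc12a1 and Umod stood at -1.15 and -3.16 with Hoxb7Cre, and Kcnj1, also made in principal cells, at 0.51. The markers thus did not move alike, and Ptger3 is not given here on its own. The summed CPM of all 4 was lower in each pulldown than in total RNA, without overlap, as given above.

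**Figure D2:**
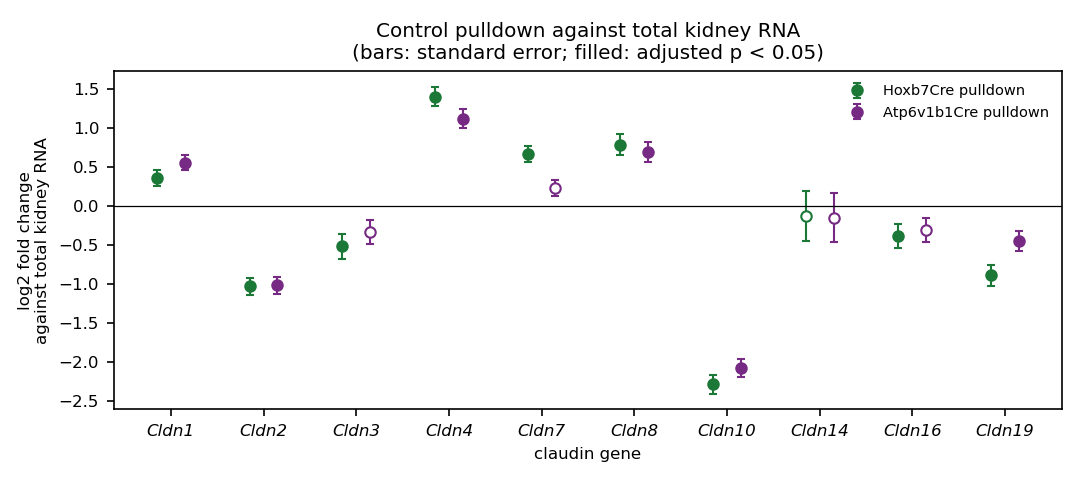
Log2 fold change of each claudin in the control pulldown of Hoxb7Cre (green) and Atp6v1b1Cre (purple) against total kidney RNA, with standard error bars and filled points at an adjusted p below 0.05. Cldn4 is the highest point at 1.40 and Cldn10 the lowest at -2.29.

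Between the drivers, control pulldowns differed in 1 claudin of 10, where 9.93% of all genes passed. Cldn7 was lower with Atp6v1b1Cre than with Hoxb7Cre, at -0.44 ± 0.12 (adjusted p = 0.00901), and in no claudin did the values of the 2 pulldowns fail to overlap, which 1.13% of all genes did. No claudin was a DEG there, where 4.11% of all genes were. The difference in Cldn7 came to -0.75 (adjusted p = 0.000340) in males and -0.22 (adjusted p = 0.50) in females, and whether the sexes differ in it was not tested. Cldn19 fell just short, 0.44 (adjusted p = 0.0501).

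Among control mice 6 claudins were higher in females than in males and none was lower, where 30.3% of all genes passed and 13.8% were higher in females. Cldn14 had the largest difference, 1.08 ± 0.26 (adjusted p = 0.00124), on low counts, and was the 1 DEG, where 5.03% of all genes were DEGs. In total RNA of mice of 5.5 months its median level was 0.508 RPKM in 8 females, with a range of 0.347 to 1.24, and 0.262 in 8 males, with a range of 0.0669 to 0.660. The groups overlapped, and without Hoxb7Cre control pulldown 3 or 9 its log2 difference was below 1. Cldn16 was higher in females by 0.60 ± 0.13 (adjusted p = 0.000221), Cldn1 by 0.53 ± 0.08 (adjusted p = 1.21e-06), Cldn7 by 0.36 ± 0.09 (adjusted p = 0.000883) and Cldn19 by 0.32 ± 0.11 (adjusted p = 0.0178). For Cldn4, at 0.28 (adjusted p = 0.0398), the result did not pass when 1 of 19 libraries was left out (adjusted p = 0.0506 to 0.0715), namely Atp6v1b1Cre control pulldown 6, 12, 13, Hoxb7Cre control pulldown 2, 3, 5, 7, 10, total library 2, 3, 4, 8, 9, 10, 13, 14, 15, 16, 18. Cldn2 and Cldn10 stood at -0.09 and -0.04. A mouse can enter this test through a total library and a pulldown. In total libraries alone, where each mouse is held once, all 6 passed, with 31.7% of all genes, Cldn7 at 0.68 (adjusted p = 4.99e-06) and Cldn19 at 0.61 (adjusted p = 0.000470). In pulldowns alone Cldn1 was the claudin of these that passed, at 0.60 (adjusted p = 0.00688), where 5.85% of all genes passed. Cldn14 and Cldn16 stood there at 1.13 (adjusted p = 0.118) and 0.62 (adjusted p = 0.110), and Cldn4, Cldn7 and Cldn19 at 0.21 (adjusted p = 0.481), 0.10 (adjusted p = 0.677) and 0.07 (adjusted p = 0.854). Both of these settings were added after seeing the data, and whether the pools differ in the sex difference was not tested. Cldn7 in the Hoxb7Cre pulldown ran from 31.1 to 46.5 CPM in females of 5.5 months and 35.7 to 57.5 in males. In that pulldown the summed CPM of 6 principal cell genes was 1104 to 2434 in females and 2694 to 3439 in males, and the part of this in the sex differences was not tested.

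Injury changed the claudins in different directions, and Cldn19 was the claudin that passed in all 4 male comparisons with controls. Counts of claudins that passed were 5 of 10 for ischemia with Hoxb7Cre, where 6.13% of all genes passed, 4 for volume depletion with Hoxb7Cre (35.5%), 1 for ischemia with Atp6v1b1Cre (8.51%) and 3 for volume depletion with Atp6v1b1Cre (14.6%). After ischemia with Hoxb7Cre 2 were higher and 3 lower, where 3.34% of all genes were higher and 2.79% lower, and after volume depletion 1 was higher and 3 were lower, where 17.9% were higher and 17.6% lower. With Atp6v1b1Cre the 1 claudin after ischemia was higher (3.77% of all genes) and the 3 after volume depletion were lower (6.47%). Counts of DEGs among the claudins were 2, 2, 1 and 1, where 2.3%, 16.4%, 2.82% and 5.15% of all genes were DEGs. The controls of each driver are shared by both injuries. The median log2 fold change of the 10 claudins was -0.37, -0.15, 0.43 and -0.07 in the same order, where the median of all genes was 0. Mice were the replicates, so the p-values measure the spread between mice.

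**Figure D3:**
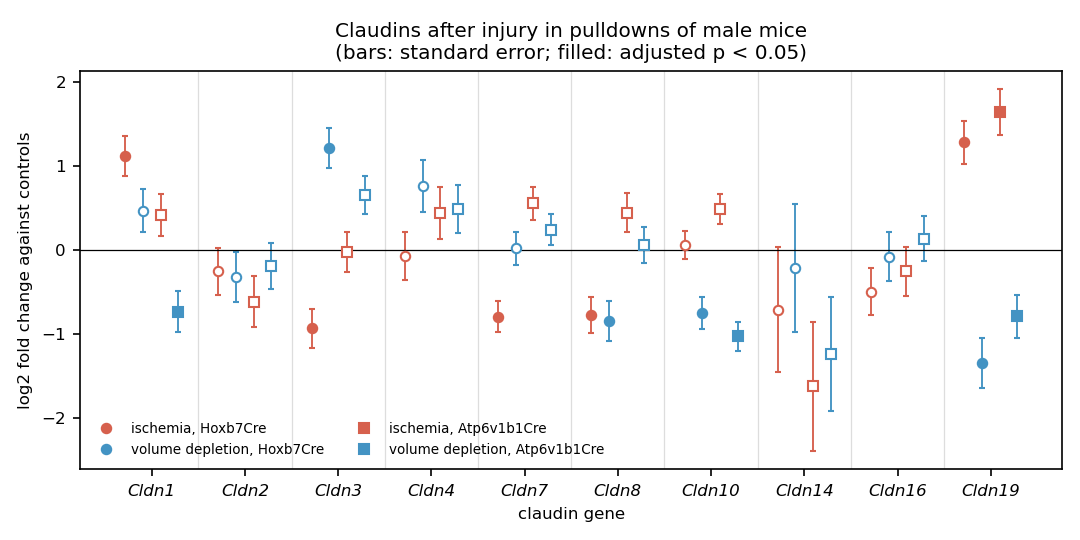
Log2 fold change of each claudin against controls in male pulldowns of 5.5 months after ischemia (red) and volume depletion (blue), for Hoxb7Cre (circles) and Atp6v1b1Cre (squares), with standard error bars and filled points at an adjusted p below 0.05. Cldn19 is filled 4 times, at 1.28 and 1.63 after ischemia and at -1.35 and -0.79 after volume depletion.

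Cldn19, the thick ascending limb claudin, was higher after ischemia. In Hoxb7Cre males the controls held 16.6, 16.8, 9.14 and 17.3 CPM and the ischemic mice 25.1, 51.5, 20.3 and 46.4. Every ischemic mouse lay above every control, and the log2 fold change was 1.28 ± 0.26 (adjusted p = 0.00597), a 2.42-fold rise. In Atp6v1b1Cre males the values were 22.6, 18.7, 23.3 and 14.3 CPM in controls and 47.7, 67.3 and 69.3 after ischemia. Again the groups did not overlap, and the rise was 1.63 ± 0.27 (adjusted p = 0.00120), or 3.10-fold. Females showed it as well. Female controls held 14.6, 15.5, 12.2 and 13.5 CPM and ischemic females 35.5, 46.9 and 49.3 with Hoxb7Cre, and 18.3, 26.7, 15.6 and 20.9 against 62.3, 34.2 and 68 with Atp6v1b1Cre. The rises in females were 1.66 ± 0.31 (adjusted p = 0.0154) and 1.41 ± 0.31 (adjusted p = 0.0239), where 3.14% and 2.66% of all genes passed. Leaving out any 1 library changed none of the calls in males, and within library numbers up to 40 their values were 1.10 (adjusted p = 0.0281) and 1.46 (adjusted p = 0.00951). The 4 thick ascending limb markers had a median of -0.22 with Hoxb7Cre, with none passing, and 0.53 with Atp6v1b1Cre, where Umod alone passed at 1.27 (adjusted p = 0.00424). Their summed CPM was 1755 to 2923 in Hoxb7Cre control males and 2179 to 2424 after ischemia, and 1234 to 2407 and 2221 to 3857 with Atp6v1b1Cre.

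After volume depletion Cldn19 was lower in males. Hoxb7Cre values were 6.14, 5.46 and 5.96 CPM, all below the control range of 9.14 to 17.3, and the log2 fold change was -1.35 ± 0.30 (adjusted p = 0.00104), a 2.54-fold fall. Atp6v1b1Cre values were 8.00, 14, 12.7 and 10.4 CPM against controls of 14.3 to 23.3, without overlap, and the log2 fold change was -0.79 ± 0.26 (adjusted p = 0.0434). The Hoxb7Cre result passed whichever library was left out and within numbers up to 40, -1.5 (adjusted p = 0.00103). The Atp6v1b1Cre result was less secure, since it did not pass without control pulldown 6, 9 or 10 or without depleted pulldown 1, 6 or 7 (adjusted p = 0.0658 to 0.120), nor within numbers up to 40, -0.91 (adjusted p = 0.118). All 4 thick ascending limb markers fell in the same Hoxb7Cre comparison, by 1.05 to 1.67 on the log2 scale, and their summed CPM was 1755 to 2923 in controls and 884 to 1018 after depletion. With Atp6v1b1Cre 2 of the 4 fell, Slc12a1 and Ptger3, and the sum was 1107 to 1245. The part of these markers in the Cldn19 result was not tested. Depleted Atp6v1b1Cre females held 9.28, 12.1 and 12.8 CPM, all below their controls, at -0.84 (adjusted p = 0.0749), which did not pass, and Hoxb7Cre females are given with the sexes.

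Cldn10 was lower after volume depletion in males of both drivers. In the Hoxb7Cre pulldown controls held 36.2, 45.9, 40.6 and 31.3 CPM and depleted mice 22.2, 19.6 and 26.6, and in the Atp6v1b1Cre pulldown controls held 42.2, 44.5, 42.8 and 34.3 and depleted mice 19.5, 16, 22.8 and 21.2. The groups did not overlap with either driver, and the log2 fold changes were -0.75 ± 0.18 (adjusted p = 0.00276) and -1.03 ± 0.17 (adjusted p = 0.000505). With Atp6v1b1Cre the size sat close to 1, and without control pulldown 9 or depleted pulldown 2 it was below 1 in size while still passing. The thick ascending limb markers moved in the same comparisons as given for Cldn19, with summed CPM of 1755 to 2923 in controls and 884 to 1018 after depletion with Hoxb7Cre and 1234 to 2407 and 1107 to 1245 with Atp6v1b1Cre, and of the 8 proximal tubule markers none passed after depletion with Hoxb7Cre. Their part in the Cldn10 result was not tested. Atp6v1b1Cre females showed the same fall, with 43, 52.7, 48.9 and 47.2 CPM in controls, 21.4, 18.7 and 16 after depletion and a log2 fold change of -1.35 ± 0.33 (adjusted p = 0.0103), where 18% of all genes passed. Hoxb7Cre females did not show it, at 0.30, and are given with the sexes. After ischemia Cldn10 stood at 0.06 (adjusted p = 0.924) with Hoxb7Cre and 0.49 (adjusted p = 0.0889) with Atp6v1b1Cre. In the latter the ischemic males held 58.4, 70.7 and 44.7 CPM, all above the controls by a narrow margin, and the test did not pass.

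Cldn16, which works with Cldn19, did not pass in any of the 4 male comparisons. Its log2 fold changes were -0.49, -0.08, -0.25 and 0.13, with standard errors of 0.27 to 0.29, in the order ischemia and depletion with Hoxb7Cre, then ischemia and depletion with Atp6v1b1Cre. In Hoxb7Cre males it held 6.95, 6.78, 6.07 and 14 CPM in controls, 4.75, 6.07, 7.46 and 5.54 after ischemia and 6.85, 9.70 and 7.36 after depletion, and the 3 ranges overlapped. Cldn16 did not pass in females either, at -0.17, 0.14, -0.35 and -0.58 in the same order. Cldn14, the brake on that pathway, rested on 1 to 31 counts in the male pulldowns. Its log2 fold changes of -0.71, -0.22, -1.62 and -1.24 carried standard errors of 0.68 to 0.77, and none passed. Females went from 0.698, 1.35, 2.81 and 1.16 CPM in Hoxb7Cre controls to 0.410, 0.254 and 0.432 after ischemia, and from 1.58, 0.913, 0.861 and 0.527 in Atp6v1b1Cre controls to 0.216, 0.0345 and 0.279 after ischemia and 0.427, 0.0479 and 0.150 after depletion. Every injured female lay below every control in these 3 comparisons, at -2.01 (adjusted p = 0.112), -2.48 (adjusted p = 0.0849) and -2.23 (adjusted p = 0.0629), none of which passed. Cldn14 was a DEG with Atp6v1b1Cre in fits of both sexes together, at -2.02 (adjusted p = 0.0138) after ischemia and -1.55 (adjusted p = 0.0311) after depletion, and in males within library numbers up to 40 after ischemia, at -2.61 (adjusted p = 0.0356). Casr, the calcium-sensing receptor, fell after volume depletion with both drivers, -1.17 (adjusted p = 0.00501) and -1.07 (adjusted p = 0.0139).

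Cldn2, the proximal tubule pore, did not pass in any male comparison with controls. Its log2 fold changes were -0.26 and -0.32 with Hoxb7Cre and -0.62 and -0.19 with Atp6v1b1Cre. In females they were 0.27 and 0.20, and 0.06 and -0.08, and none passed. Single mice spread widely, as with the depleted Atp6v1b1Cre males at 449, 342, 149.8 and 154 CPM. Of the 8 proximal tubule markers none passed in either Hoxb7Cre comparison, and 4 fell after ischemia with Atp6v1b1Cre.

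**Figure D4:**
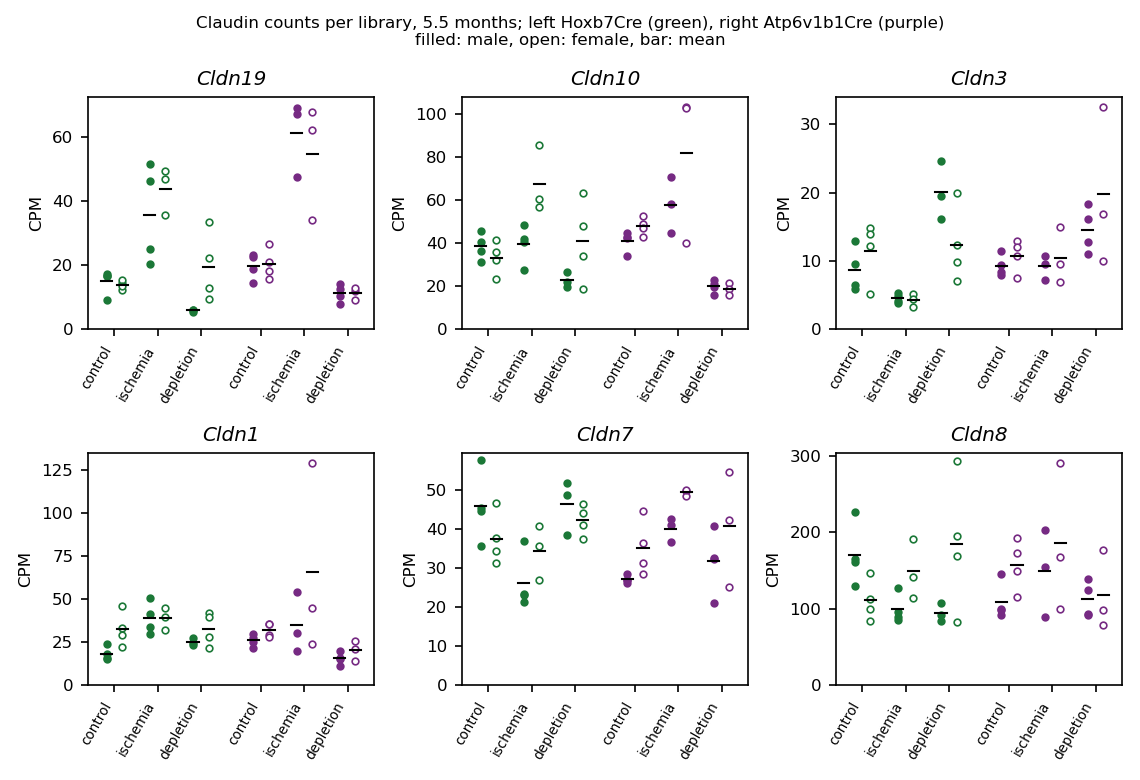
CPM of 6 claudins in each pulldown library of mice of 5.5 months, with control, ischemia and volume depletion side by side for Hoxb7Cre (green, left) and Atp6v1b1Cre (purple, right), males filled, females open, and a bar at the mean. Cldn19 in Hoxb7Cre males runs from 5.46 to 6.14 CPM after depletion to 20.3 to 51.5 after ischemia, while depleted females are spread over 9.51 to 33.5.

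Cldn3, a claudin of the distal nephron, fell after ischemia and rose after volume depletion in Hoxb7Cre males. Controls held 6.53, 5.96, 12.9 and 9.51 CPM, ischemic mice 4.11, 5.25, 4.89 and 3.90 and depleted mice 16.2, 19.5 and 24.7. All ischemic mice lay below and all depleted mice above the controls. The log2 fold change was -0.93 ± 0.23 (adjusted p = 0.0179) after ischemia and 1.21 ± 0.24 (adjusted p = 0.000367) after depletion, which is a 2.31-fold rise. The fall after ischemia did not pass without control pulldown 4, ischemic pulldown 4 or ischemic pulldown 7 (adjusted p = 0.0504 to 0.0668) or within library numbers up to 40, -0.47 (adjusted p = 0.141), whereas the rise after depletion was 1.70 (adjusted p = 4.90e-06) within those numbers. In Atp6v1b1Cre males depletion gave 11, 12.8, 16.1 and 18.3 CPM against 7.91, 9.39, 8.44 and 11.5 in controls, 0.65 (adjusted p = 0.0516), and ischemia gave -0.03 (adjusted p = 1). Hoxb7Cre females held 5.13, 12.2, 14.8 and 13.9 CPM in controls, 5.09, 4.38 and 3.24 after ischemia and 7.06, 12.4, 9.88 and 20.0 after depletion, at -1.43 (adjusted p = 0.0598) and 0.10 (adjusted p = 1). In females the depleted mice overlapped the controls, and neither value passed.

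Cldn7 and Cldn8, claudins of the collecting duct, were lower after ischemia in Hoxb7Cre males. Cldn7 went from 35.7, 45.3, 57.5 and 44.6 CPM in controls to 23.1, 36.8, 23.4 and 21.2 after ischemia, with ischemic pulldown 5 inside the control range. Its log2 fold change was -0.80 ± 0.18 (adjusted p = 0.0121), which did not pass without ischemic pulldown 7 (adjusted p = 0.0516). Cldn8 went from 160.3, 226, 165 and 129 CPM to 88.6, 95.7, 126 and 84.8, without overlap, at -0.77 ± 0.21 (adjusted p = 0.0348), and did not pass without control pulldown 3 or 4 or ischemic pulldown 4, 5 or 7 (adjusted p = 0.0548 to 0.141). After depletion Cldn8 held 107.8, 83.4 and 91.5 CPM, again below all controls, at -0.85 ± 0.24 (adjusted p = 0.00699), and Cldn7 stood at 0.02 (adjusted p = 0.993). In the same males 5 of 6 principal cell markers fell after ischemia, with a median of -1.14, and 6 of 6 after depletion, with a median of -1.32. Their summed CPM was 2694 to 3439 in controls, 1005 to 1254 after ischemia and 1110 to 1213 after depletion, and their part in the falls of Cldn3, Cldn7 and Cldn8 was not tested. Under 11 other settings, females and both sexes among them, the fall of Cldn7 after ischemia passed in 8 and did not pass in 3. That of Cldn8 passed in 8, did not pass in 2 and reversed in 1, the females. Values within the range of library numbers of the injury libraries alone are not given here for either gene. Hoxb7Cre females did not show these falls after ischemia. Cldn7 held 31.1, 46.5, 34.3 and 37.8 CPM in female controls and 27, 35.6 and 40.6 in ischemic females, at -0.11 (adjusted p = 0.808). Cldn8 held 147, 83.5, 99.8 and 111.8 CPM and 114, 141 and 191, at 0.44 (adjusted p = 0.487), so its estimate had the opposite sign to that in males, and neither gene passed.

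Cldn4, the most enriched claudin of these pulldowns, did not pass against controls after either injury. Hoxb7Cre control males held 76.6, 85.6, 129 and 92.3 CPM, ischemic males 63.1, 152, 85 and 62.1 and depleted males 120.1, 200.3 and 164. Its log2 fold change was -0.07 (adjusted p = 0.962) after ischemia and 0.76 (adjusted p = 0.0598) after depletion, with 1 depleted mouse inside the control range. Within library numbers up to 40 the value after depletion was 1.01 (adjusted p = 0.0378). With Atp6v1b1Cre it stood at 0.44 and 0.49. Hoxb7Cre females stood at -1.0 (adjusted p = 0.0814) after ischemia and -0.38 (adjusted p = 0.812) after depletion.

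Cldn1, the barrier claudin, rose after ischemia in Hoxb7Cre males. Controls held 23.7, 15.8, 15.2 and 17.8 CPM and ischemic mice 29.8, 50.3, 33.9 and 41.4, without overlap, and the log2 fold change was 1.11 ± 0.24 (adjusted p = 0.00828), a 2.16-fold rise that passed whichever library was left out. Within library numbers up to 40 it was 0.97 (adjusted p = 0.0186). Female controls of this driver already lay at 22.2, 28.8, 33.1 and 45.9 CPM, and their ischemic mice at 45, 39.3 and 31.7, 0.26 (adjusted p = 0.729). In Atp6v1b1Cre males ischemia gave scattered values of 19.8, 30.2 and 53.8 CPM against 29.6, 27.4, 24.9 and 21.7 in controls, 0.42 (adjusted p = 0.334). An ischemic Atp6v1b1Cre female reached 129 CPM, the highest value of Cldn1 in any library. Volume depletion lowered Cldn1 in Atp6v1b1Cre males to 10.8, 19.9, 14.9 and 15.9 CPM, all below the controls, at -0.73 ± 0.24 (adjusted p = 0.0418). That result did not pass without control pulldown 6, 9 or 10 or depleted pulldown 1, 6 or 7 (adjusted p = 0.0714 to 0.120), nor within library numbers up to 40, -0.89 (adjusted p = 0.0577). Depleted Atp6v1b1Cre females held 20.7, 25.7 and 14.1 CPM against 29.3, 35.2, 28.1 and 35.6 in controls, without overlap, at -0.66 (adjusted p = 0.251), which did not pass. Markers of injured proximal tubule moved with ischemia. Of Havcr1, Krt20 and Vcam1, the first 2 rose with each driver, and their summed CPM with Hoxb7Cre was 12 to 14.8 in control males and 62.9 to 265 after ischemia, and their part in the Cldn1 result was not tested.

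Values stood apart between injured and control males in 4 claudins for ischemia with Hoxb7Cre, where 15.9% of all genes stood apart, in 4 for volume depletion with Hoxb7Cre (39.5%), in 3 for ischemia with Atp6v1b1Cre (20.6%) and in 3 for volume depletion with Atp6v1b1Cre (14.5%). The 4 in the first case were Cldn1, Cldn3, Cldn8 and Cldn19. Cldn7, Cldn10 and Cldn19 stood apart after ischemia with Atp6v1b1Cre, and of these Cldn19 alone passed the test. In females the values stood apart in 4 claudins for ischemia with Hoxb7Cre (22.8% of all genes), in 0 for volume depletion with Hoxb7Cre (3.51%), in 3 for ischemia with Atp6v1b1Cre (17.1%) and in 4 for volume depletion with Atp6v1b1Cre (31.2%).

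Ischemia and volume depletion were also compared directly, without controls. With Hoxb7Cre 5 claudins passed, where 33.3% of all genes passed, and 2 were DEGs (14.7%). With Atp6v1b1Cre 4 passed, where 29.3% did, and 3 were DEGs (11.6%). Cldn19 differed most, and was higher after ischemia by 2.62 ± 0.31 (adjusted p = 1.64e-06), or 6.16-fold, with Hoxb7Cre and by 2.43 ± 0.28 (adjusted p = 3.51e-06), or 5.37-fold, with Atp6v1b1Cre. Cldn10 was higher after ischemia as well, by 0.81 ± 0.18 (adjusted p = 0.00167) and 1.52 ± 0.18 (adjusted p = 4.49e-06). In males of each driver the summed CPM of the thick ascending limb markers, given above, was also higher after ischemia than after depletion, without overlap. The part of these markers in the Cldn19 and Cldn10 results was not tested. Cldn3 was lower after ischemia, at -2.14 ± 0.24 (adjusted p = 1.26e-06) with Hoxb7Cre, a 4.41-fold difference, and at -0.68 ± 0.24 (adjusted p = 0.0382) with Atp6v1b1Cre. The latter did not pass without ischemic pulldown 1 or 4 or depleted pulldown 6 or 7 (adjusted p = 0.0838 to 0.202). Cldn7 was lower after ischemia with Hoxb7Cre, -0.82 (adjusted p = 0.00238), and so was Cldn4, -0.83 (adjusted p = 0.0413), which did not pass without ischemic pulldown 4, 6 or 7 or depleted pulldown 6 or 7 (adjusted p = 0.0828 to 0.18). Cldn1 was higher after ischemia with Atp6v1b1Cre, 1.15 ± 0.25 (adjusted p = 0.00166), and 0.69 (adjusted p = 0.0713) within library numbers up to 40. In females 2 claudins passed with Hoxb7Cre, where 3.78% of all genes passed, Cldn19 at 1.18 (adjusted p = 0.0408) and Cldn3 at -1.53 (adjusted p = 0.0471). With Atp6v1b1Cre 3 passed, where 33.1% did, Cldn19 at 2.25 (adjusted p = 0.000199), Cldn10 at 2.11 (adjusted p = 0.000308) and Cldn1 at 1.68 (adjusted p = 0.00435).

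A further test asked whether the size of the response differed between the drivers. For ischemia 2 claudins passed, where 7.79% of all genes passed, and both were DEGs (3.49%). The response of Cldn7 was higher with Atp6v1b1Cre by 1.35 ± 0.27 (adjusted p = 0.00580). With that driver Cldn7 held 26, 28.5, 26.8 and 26.9 CPM in control males and 41, 42.5 and 36.5 after ischemia, so that the ischemic mice lay above the controls, where with Hoxb7Cre 3 of 4 lay below. The response of Cldn8 was higher by 1.21 ± 0.31 (adjusted p = 0.0211), with 98.3, 91.3, 146 and 98.8 CPM in Atp6v1b1Cre controls and 202, 155 and 88.6 after ischemia. It did not pass without Hoxb7Cre control 3 or Atp6v1b1Cre ischemic pulldown 1 or 4 (adjusted p = 0.0502 to 0.0966). Most principal cell markers fell after ischemia in Hoxb7Cre males, as given above, and their part in these differences between drivers was not tested. Females alone gave 0.59 (adjusted p = 0.717) for Cldn7 and -0.21 (adjusted p = 1) for Cldn8, and both sexes together gave 1.01 (adjusted p = 0.0120) and 0.60 (adjusted p = 0.392). For Cldn19 the drivers' responses to ischemia differed by 0.36 ± 0.37 (adjusted p = 0.638). For volume depletion no claudin passed in edgeR, where 4.2% of all genes passed and 2.93% were DEGs. Cldn1 came closest at -1.20 ± 0.35 (adjusted p = 0.0533), and at an unadjusted p below 0.05 there were 2 claudins, Cldn1 and Cldn8, where 18.8% of all genes met that mark. As DEGs DESeq2 gave 1 claudin, Cldn1 at -1.21 (adjusted p = 0.0161), where 4.37% of all genes were DEGs. Library numbers up to 40 gave 2, Cldn1 and Cldn3, where 8.9% of all genes were DEGs.

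Males and females of the Hoxb7Cre driver differed in their response to volume depletion. The test of the difference passed for 3 claudins, all DEGs, where 16% of all genes passed and 10.8% were DEGs. Cldn19 fell in males, but depleted females held 22.3, 12.9, 33.5 and 9.51 CPM against 14.6, 15.5, 12.2 and 13.5 in their controls, and the difference in response was 1.82 ± 0.44 (adjusted p = 0.00626), which passed whichever of the 15 libraries was left out. Cldn8 in females went from 147, 83.5, 99.8 and 111.8 CPM to 292, 169, 195 and 83, a difference from males of 1.58 ± 0.44 (adjusted p = 0.0159) that did not pass without depleted pulldown 1, the highest of these females (adjusted p = 0.0597). Cldn10 in females went from 41.3, 23.5, 32 and 36.1 to 63.6, 34.3, 48 and 18.9 CPM. Its difference of 1.05 ± 0.37 (adjusted p = 0.0491) sat at the threshold and did not pass when 1 of 11 libraries was left out (adjusted p = 0.0609 to 0.169), namely Hoxb7Cre control pulldown 2, 3, 4, 6, 9, 10, depleted Hoxb7Cre pulldown 1, 3, 4, 6, 7. In females alone these genes stood at 0.48 (adjusted p = 0.755), 0.74 (adjusted p = 0.602) and 0.30 (adjusted p = 0.816), none of which passed, where 0.109% of all genes did. At an unadjusted p below 0.05 there was 1 claudin in females, where 7.91% of all genes met that mark. Depleted females varied, with pulldown 5 the lowest of the 4 for all 3 genes. The 4 thick ascending limb markers differed between the sexes in the same comparison, by 1.38 to 2.24, and 5 of 6 principal cell markers did too. Their summed CPM in depleted females was 1537 to 3091 and 1154 to 2110, against 884 to 1018 and 1110 to 1213 in depleted males, and the part of these markers was not tested. All depleted Hoxb7Cre libraries carried numbers up to 40, against 2 of 4 male and 1 of 4 female controls of 5.5 months.

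Fits of both sexes together, with sex as a covariate, left several claudins that passed in Hoxb7Cre males short of the threshold. After volume depletion these were Cldn19 at -0.16 (adjusted p = 0.725), Cldn10 at -0.19 (adjusted p = 0.577), Cldn8 at -0.04 (adjusted p = 0.961) and Cldn3 at 0.64 (adjusted p = 0.0704). After ischemia they were Cldn1 at 0.71 (adjusted p = 0.0853), Cldn7 at -0.50 (adjusted p = 0.0671) and Cldn8 at -0.26 (adjusted p = 0.596). The rise of Cldn19 and the fall of Cldn3 after ischemia passed in both sexes together, at 1.44 (adjusted p = 0.000790) and -1.19 (adjusted p = 0.00454).

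No claudin passed in the other tests between the sexes by edgeR. For ischemia with Hoxb7Cre 10.5% of all genes passed and 6.98% were DEGs, Cldn8 stood at 1.20 (adjusted p = 0.0695) and Cldn10 at 0.97 (adjusted p = 0.0828). There 4 claudins had an unadjusted p below 0.05, where 27.2% of all genes did, and DESeq2 gave 1 DEG, Cldn8 at 1.21 (adjusted p = 0.0404), where 8.61% of all genes were DEGs. With Atp6v1b1Cre no gene of the table passed for either injury, while 3.19% of genes for ischemia and 8.29% for depletion had an unadjusted p below 0.05. None of these was among the 10 claudins, and DESeq2 called none of them. Cldn19 there differed between the sexes by -0.23 ± 0.43 for ischemia and by -0.03 ± 0.43 for depletion.

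**Figure D5:**
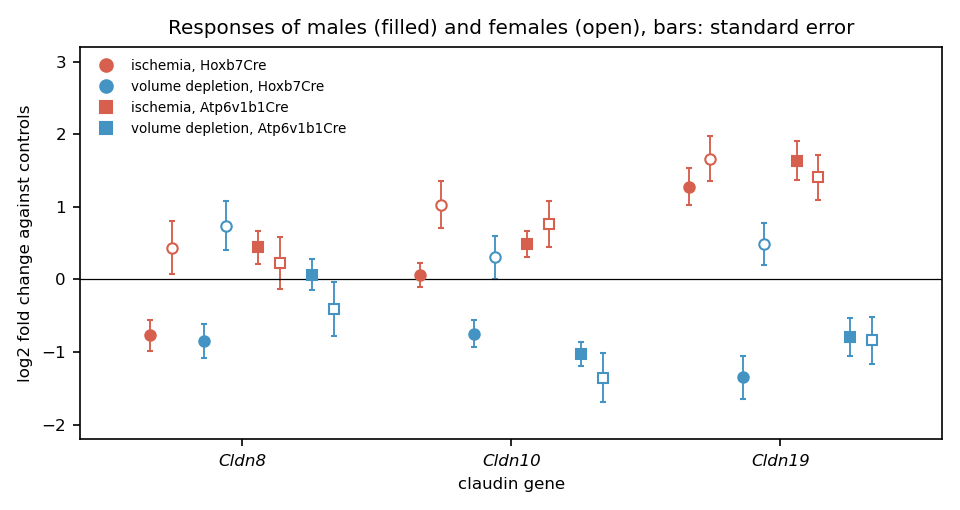
Log2 fold change against controls of the same sex for Cldn8, Cldn10 and Cldn19 in males (filled) and females (open) of 5.5 months, after ischemia (red) and volume depletion (blue), for Hoxb7Cre (circles) and Atp6v1b1Cre (squares), with standard error bars. After volume depletion with Hoxb7Cre Cldn19 stands at -1.35 in males and 0.48 in females, while after ischemia it stands at 1.28 and 1.66.

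Most of the other genes that carry a Cldn symbol were rare, but Cldn12 was not. Of the 22, 16 could be tested and 7 had at least 1 count in every library. Cldn12 had the most, with 288636 counts over all libraries and up to 7258 in 1 library. The highest counts in 1 library were 19562 for Cldn2, 8425 for Cldn8 and 5536 for Cldn4. Cldn15 had 22815 counts over all libraries. The levels ranked above are those of the 10 claudins alone. Of these other genes none passed after ischemia with Hoxb7Cre, and Cldn12 alone passed after ischemia with Atp6v1b1Cre at -0.41 (adjusted p = 0.0456). After volume depletion with Hoxb7Cre 3 rose, Cldn15 at 1.44 (adjusted p = 0.000248), Cldn23 at 1.38 (adjusted p = 0.0139) and the endothelial claudin Cldn5 at 1.65 (adjusted p = 0.00453). After volume depletion with Atp6v1b1Cre Cldn5 rose by 1.26 (adjusted p = 0.0348), and so did Cldn24 by 2.75 (adjusted p = 0.00324), which had no more than 10 counts in any library. Of 5 endothelial markers 2 rose after volume depletion with Hoxb7Cre, Cdh5 and Flt1, and the summed CPM of the 5 was 107.6 to 217 in control males and 245 to 356 in depleted males. With Atp6v1b1Cre none of the 5 rose, and the sum was 191 to 247 and 149 to 270.1. The part of endothelial cells in the Cldn5 values was not tested. With the injuries compared directly, Cldn5 and Cldn23 were DEGs with Hoxb7Cre at -1.77 and -1.74, lower after ischemia, and Cldn24 with Atp6v1b1Cre at -2.40. The response of Cldn15 differed between the sexes with Hoxb7Cre, by -1.63 for ischemia and -1.52 for depletion, a lower response in females, and Cldn24 between the control pulldowns, by -1.76. Against total RNA Cldn5 was depleted, -1.95 with Hoxb7Cre and -1.53 with Atp6v1b1Cre, as were Cldn11, Cldn18 and Cldn34b2. Counts were low for Cldn18 and Cldn34b2, with no more than 40 and 5 in any library. Cldn15 was also lower, -1.04 and -0.93, while Cldn17, Cldn20, Cldn23 and Cldn24 were enriched with Hoxb7Cre, each by 1.35 or more. Cldn17 and Cldn20 had no more than 24 and 37 counts in any library. On its low counts Cldn18 was lower in female than in male controls, at -3.09 (adjusted p = 5.02e-08).

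Claudins are held at the junction by scaffold, adhesion and polarity proteins. Of 22 tested tight junction genes, 3 were higher and 2 lower after ischemia with Hoxb7Cre in males, where 3.34% and 2.79% of all genes were. The counts were 2 and 5 after volume depletion (17.9% and 17.6%), 3 and 1 after ischemia with Atp6v1b1Cre (3.77% and 4.74%), and 3 and 0 after volume depletion (8.11% and 6.47%). In females none passed with Hoxb7Cre after ischemia or volume depletion, where 3.14% and 0.109% of all genes did. Among these the only DEG was Tjp3, a scaffold beneath the junction, which fell after ischemia with Hoxb7Cre, at -1.06 (adjusted p = 0.000582), and whose response differed between the drivers by 1.17 (adjusted p = 0.00506) and between the sexes with Hoxb7Cre by 1.17 (adjusted p = 0.00807). The latter test also passed for Amotl1, a junction protein of the angiomotin family, at -1.01 (adjusted p = 0.0331). Ocln, a strand protein, was lower after ischemia than after volume depletion with Atp6v1b1Cre, at -1.13 (adjusted p = 0.00299). Against total RNA 14 of the 22 were higher and 4 lower with Hoxb7Cre, where 35.6% and 31.1% of all genes were. The scaffolds Magi3 at 1.39 and Tjp1 at 1.09, Ocln at 1.18 and the polarity protein Mpp5 at 1.16 were DEGs there, and also with Atp6v1b1Cre at 1.26, 1.08, 1.10 and 1.12. The adhesion molecule Jam3 was a DEG in the lower direction with Hoxb7Cre at -1.21.

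Of 12 genes known to control claudins or transport beside them, 7 fell and none rose after volume depletion in Hoxb7Cre males. Of all genes 17.6% were lower and 17.9% higher there. Among the 7 that fell 4 were DEGs, where 16.4% of all genes were DEGs. In Hoxb7Cre females none of the 12 passed, where 0.109% of all genes did. Their median was 0.12 on the log2 scale, against -0.82 in males. Elf5, a transcription factor of principal cells, fell by 1.74 (adjusted p = 2.81e-06). Trpv5, the apical calcium channel of the distal convolution, fell by 1.66 (adjusted p = 0.000975). Wnk4, a kinase that governs chloride handling in the distal nephron, fell by 1.14 (adjusted p = 9.82e-05), and Casr, given above, was the fourth. All 4 differed between the sexes in this response, where 16% of all genes did, Trpv5 by 2.03, Casr by 1.63, Elf5 by 1.20 and Wnk4 by 1.10. Segment markers moved in the same males. The summed CPM of 3 distal convoluted tubule genes, Slc12a3, Pvalb and Trpm6, was 259 to 458 in controls and 152 to 213 after depletion, and Slc12a3 passed. The sums of the thick ascending limb and principal cell genes were lower after depletion, without overlap, as given above, and the part of these segments in the regulators was not tested. With Atp6v1b1Cre Trpv5, Wnk4 and Casr were DEGs after volume depletion too, at -1.32, -1.19 and -1.07, where the distal convoluted tubule sum was 358 to 695 in controls and 133 to 224 after depletion. The same 3 genes were DEGs in females of that driver, at -1.95, -1.34 and -1.26. With the injuries compared directly, Trpv5, Casr and Wnk4 were higher after ischemia with Hoxb7Cre, by 1.77, 1.39 and 1.29, and Wnk4 with Atp6v1b1Cre, by 1.09, while Hnf4a, a factor of the proximal tubule, was lower there at -1.34. Ischemia lowered Elf5 with Hoxb7Cre, -0.82 (adjusted p = 0.0132), and Klhl3 and Hnf4a with Atp6v1b1Cre, -1.35 (adjusted p = 0.00444) and -1.39 (adjusted p = 0.0208). Klhl3 is part of the ligase that removes Wnk kinases. Between the drivers the response of Elf5 differed by 1.56 for ischemia and 2.44 for depletion, and that of Klhl3 by -1.27 for ischemia. Among the factors of the collecting duct, Grhl2 and Tfcp2l1 were enriched over total RNA by 1.70 and 1.60 with Hoxb7Cre and by 1.32 and 1.53 with Atp6v1b1Cre. Elf5 and the kinase Wnk1 were DEGs against total RNA with Hoxb7Cre, at 2.49 and 1.39, and Casr, Klhl3 and Wnk1 with Atp6v1b1Cre, at 1.24, 1.06 and 1.65. Between the control pulldowns Elf5 was lower with Atp6v1b1Cre, at -1.93, and Trpv5 higher, at 1.25.

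Across the 69 libraries the claudins followed different genes. Likeness was the Pearson correlation of log2 CPM among 15101 genes, and since all pairs share the split of these libraries into total RNA and pulldown it is a description only. Cldn10 was most like Rtn3 (r = 0.977) and Cetn2 (0.975). Cldn2 was most like Fads2 (0.933) and Igfbp4 (0.923), and Cldn3 most like Fam58b (0.891) and 2310047M10Rik (0.886). The nearest genes of Cldn4 were Stambpl1 (0.887) and Sh3bp4 (0.885), those of Cldn8 were Cav2 (0.856) and Ppp1cb (0.850), and those of Cldn7 were Tmem30b (0.831) and Krt18 (0.813). Cldn19 was most like Prim1 (0.846) and Dnajc7 (0.823). Values were lower for Cldn1, with Adgrg2 (0.744) and Itgb6 (0.732), for Cldn16, with Ccbl2 (0.703) and Scd1 (0.697), and for Cldn14, with Igfbp1 (0.655) and Pim2 (0.595). Among the claudins themselves the correlation ran from -0.84 between Cldn2 and Cldn4 to 0.78 between Cldn2 and Cldn10.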

How the data were processed

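Kidneys of mice given 430 mg/kg 4-TU were used for total RNA and for biotinylated tagged RNA, and libraries were made with the Illumina TruSeq kit. The table holds counts per gene that the authors deposited. Tools in the submitters' processing notes are CASAVA 1.8.2, Trimmomatic 0.36, STAR 2.5.3a and HTSeq 0.6.1p2 with mm10. The annotation is not given in the sources used here. All 69 columns matched a label, and none was left out.

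Counts were tested with edgeR 4.0.16 (R 4.3.3, limma 3.58.1), TMM factors, the quasi-likelihood test and Benjamini-Hochberg adjustment over 21175 genes with at least 2 counts over all libraries. Adjusted p-values come from edgeR unless DESeq2 1.42.0 is named. Genes passed at an adjusted p below 0.05, and DEGs also changed by 1 or more on the log2 scale in either direction. Errors beside log2 fold changes are standard errors. One fit took the 22 male pulldowns of 5.5 months, another the 42 controls with sex, and the last the 43 pulldowns of 5.5 months with 12 groups of driver, treatment and sex, and females were also fitted alone. CPM used TMM factors over all 69 libraries, and RPKM used exonic lengths of GENCODE M21. Data were simulated from the ischemia comparison of Hoxb7Cre, with 21175 genes. There 77% of genes changed by 1 on the log2 scale and 100% of those changed by 2 passed. The changed genes were drawn from those with a mean above 1 CPM, and the simulated spread followed the trend over genes. These shares therefore do not cover Cldn14, nor a claudin whose spread between mice lies above that trend. All other genes were left unchanged, and 187 genes passed in the simulation, against 1298 in the real comparison.

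The claudins and all gene lists were chosen with earlier results of these data known. The text names the 10 claudins, every other Cldn gene, tight junction gene and regulator of the fixed lists that was a DEG in the 16 comparisons of males, controls and the sexes, and cell markers set beside a result, with 1 exception that is not reported here. No pair of libraries agreed within sampling noise. Total libraries and pulldowns of the same control mice were fitted as separate libraries, since the labels do not link them. Alternatives covered DESeq2, its size factors, filters, the sexes, ages and library numbers used, the replicate block and leaving out each library.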

Additional observations from a re-analysis of the deposited data

Results flagged for a closer look

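In 5 of 90 groups of values 1 library stood far from the others of its group, and chance alone gives about 1 in 20. Cldn4 had 58.9 CPM in female Hoxb7Cre control pulldown 1, where the other 3 held 124 to 132. Cldn7 had 36.8 CPM in ischemic male Hoxb7Cre pulldown 5, where the others held 21.2 to 23.4. Cldn8 had 146 CPM in male Atp6v1b1Cre control pulldown 10, against 91.3 to 98.8 in the others. Cldn16 had 14 CPM in male Hoxb7Cre control pulldown 5, against 6.07 to 6.95. Cldn19 had 9.14 CPM in male Hoxb7Cre control pulldown 4, against 16.6 to 17.3.

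In 5 tests the response of a claudin differed between groups. The log2 response to ischemia was higher with Atp6v1b1Cre than with Hoxb7Cre for Cldn7, by 1.35, and for Cldn8, by 1.21, both by edgeR's test of the difference. The log2 response to volume depletion with Hoxb7Cre was higher in females than in males for Cldn19, by 1.82, for Cldn8, by 1.58, and for Cldn10, by 1.05.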

How the results depend on the processing

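Of 503 values of single claudins under other settings, over 49 results that passed, 450 kept their direction and passed, 48 kept their direction and did not pass, and 5 reversed. DESeq2 kept all 49. The 5 that reversed were fits of females of 5.5 months, where volume depletion with Hoxb7Cre gave 0.30 for Cldn10, 0.48 for Cldn19 and 0.74 for Cldn8, ischemia gave 0.44 for Cldn8, and the difference between drivers gave -0.21 for Cldn8. With 1 library left out, 912 of 981 values passed and none reversed.

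Counts of claudins that were DEGs, 2 for ischemia and 2 for volume depletion with Hoxb7Cre, 1 and 1 with Atp6v1b1Cre, moved as follows. With no fold threshold they were 5, 4, 1 and 3, the direct comparison of injuries with Hoxb7Cre had 5 (2 in the main), pulldowns against total 9 and 6 (3 and 3), pulldowns against each other 1 (0), and females against males 6 (1). Fits of both sexes gave 0 for volume depletion with Hoxb7Cre, 2 and 2 with Atp6v1b1Cre, and 1 for the difference between drivers in ischemia (2). Females of 5.5 months gave 1 and 0 with Hoxb7Cre and 0 for that difference. Pulldowns alone, added after seeing the data, gave 0 for females against males (1). Males alone gave 5 for Hoxb7Cre against total, and females alone 1 for Atp6v1b1Cre against total. Library numbers up to 40, a setting added after seeing the data, gave 1 for ischemia and 4 for volume depletion with Hoxb7Cre, 2 for ischemia with Atp6v1b1Cre, and 2 for the difference between drivers in depletion (0). That difference was 1 with DESeq2, its size factors, the stricter count filter, library numbers as a covariate and 25 males. DESeq2 gave 1 for the sexes in ischemia with Hoxb7Cre (0). The cause of these shifts was not tested.

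Same-numbered samples did not deviate together, and the replicate numbers were not taken to pair them. The mean correlation was 0.03 over 10 pairs of Hoxb7Cre pulldown and total library and -0.02 over 3 pairs of ischemic and depleted Hoxb7Cre pulldowns. By the labels most of these pulldown and total pairs differ in genotype or sex, and ischemic and depleted pulldowns come from different mice. The check therefore cannot show whether pulldown and total library of the same mouse deviate together. The replicate block joins the same numbers and has the same limit. With the replicate block the counts were 0 for volume depletion with Hoxb7Cre, 0 for ischemia and 3 for volume depletion with Atp6v1b1Cre, 0 for the difference between drivers in ischemia and 0 for females against males, and 37 of 46 single values passed.

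Leaving out 1 library gave 1 to 3 for the difference between drivers in ischemia, 0 to 1 for that in depletion, 1 to 5 for the sexes in depletion with Hoxb7Cre, 0 to 1 for females against males, 2 to 4 for the injuries compared with Hoxb7Cre, and 0 to 1 for volume depletion with Atp6v1b1Cre. The count for the sexes was 1 without depleted pulldown 1 and 5 without control 1 or depleted pulldown 5, and the count for the injuries compared was 4 without ischemic pulldown 5. The count for drivers in depletion was 1 without Hoxb7Cre control 2 or depleted Atp6v1b1Cre pulldown 2. Cldn14 rested on 1 to 64 counts in a pulldown.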
